A study of Mus musculus with 6 samples.

Results

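The E2F transcription factors and the retinoblastoma (pocket) proteins were read in intestinal crypts of mice with and without loss of imprinting (LOI) of Igf2. The family was taken as 10 genes. An array probe was assigned to a gene where the accession in the array file, without its version, was one of that gene's RefSeq accessions. A name that matched no accession was looked up as a gene symbol and then as a synonym. By this rule 8 of the 10 genes had a probe, 1 each, among 41006 probes: E2f1, E2f2, E2f4, E2f5, E2f6, Rb1, Rbl1 and Rbl2. No probe was paired with E2f3 or E2f8, which are not analysed here. All 6 mice were C57BL/6 and aged 120 days, from crosses of H19+/- females with wild-type males, with 3 mice per group. LOI(+) mice had inherited maternally a chromosome that lacks H19 and sequence upstream of it, including the differentially methylated region, a deletion known to activate the otherwise silent maternal copy of Igf2. LOI(-) mice were wild type. The deletion is inherited and so is not limited to the crypts. Of the 6 mice 4 were labelled male, and for LOI(-) 3 and LOI(+) 2 the labels state none. Crypts, the glands that hold the dividing cells of the intestinal lining, were cut by laser from frozen sections of the middle small intestine and pooled per mouse. Crypt RNA of 1 mouse per array carried Cy3, and the common reference in the Cy5 channel was Universal Mouse Reference RNA, made from mouse cell lines.

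E2F proteins bind DNA, mostly together with a DP partner, at the promoters of genes needed for S phase. E2F1, E2F2 and E2F3 are known chiefly as activators, E2F4 and E2F5 chiefly as repressors that work with pocket proteins, and E2F6, E2F7 and E2F8 as repressors that do not need them. The pocket proteins RB (Rb1), p107 (Rbl1) and p130 (Rbl2) hold E2Fs inactive until cyclin-dependent kinases phosphorylate them. In the intestine this switch separates the dividing cells of the crypt from the differentiated cells of the villus. Much of this control acts on the proteins, through phosphorylation and localisation, which RNA arrays do not read.

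The measured stretch of each transcript is set by its probe. The first 30 of the 60 bases of each probe follow, 5′ to 3′ as the array files give them, all in lower case because no part is singled out.
E2f1: ccaccctccagtctgcactttgatttgttt
E2f2: cggccaactcccccctgatcagcttctccc
E2f4: acttccacttattcacttaccctcatttag
E2f5: ttgccgcaaaattgtttctatgtatccttc
E2f6: gctgatggaacctggattgttggtatacag
Rb1: aggtcttttgctagtgagttcaagttagaa
Rbl1: gtgtagtatctacacatgttgtaataagcc
Rbl2: tcaattgtaaattggatcatgataaaccaa
These stretches show that the 8 probes are distinct, and 0 other probes on the array shared a run of 16 or more bases with any of them over the full length. The E2f2 probe was the richest in G and C, at 65.0%, E2f1 had 46.7%, E2f6 slightly less, and the probes of E2f4, E2f5 and the pocket proteins had 35.0% each.

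Several genes of this family are known to be E2F targets themselves. RefSeq promoter windows of GRCm38.p6, 250 bases before to 50 after a transcription start, were searched on both strands for the core of the E2F site in 4 spellings, TTTCCCG and then TTTGGCG and then TTTCGCG and then TTTGCCG, where a match on one strand may overlap a match on the other. Of the 10 genes 7 were in the table (E2f4, E2f5 and Rb1 were not), and 3 of the 7, E2f2, E2f3 and Rbl1, held a match, against 7.65% of all 27025 genes with a window. The matched stretches of the 2 genes with a probe follow, 5′ to 3′ on the strand of the gene, with the matches in capitals.
E2f2, chr4:136172294-136172323, plus strand: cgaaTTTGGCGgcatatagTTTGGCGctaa
Rbl1, chr2:157204535-157204564, minus strand: caagaaggcgatTTTCGCGcgctttgtcgc
The E2f2 matches lay 3′ of the start and the Rbl1 match just 5′ of it. The windows of E2f1, E2f6, E2f8 and Rbl2 held 0 matches. A match is a description of the sequence and not evidence of binding.

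All 8 genes were measurable, each brighter in Cy3, on all 6 arrays, than 95% of the 314 features that carry negative controls. That bound lay between 439 and 449, and the median probe between 552 and 603. No spot of the 8 probes was saturated or marked as an outlier. The Rbl2 signals, 516 to 599, were the nearest to the controls. Across arrays and over all probes the log2 ratios correlated with r from 0.932 to 0.975, and LOI(+) 2 had the lowest mean r, 0.948, and 146 features marked as outliers, against 14 to 50 on the others. Igf2 itself differed by -0.0024 ± 0.058 (SE), adjusted p 0.997 by limma, and no probe was paired with H19, so the deleted gene gave no check of the labels. Image extraction of the LOI(-) arrays preceded that of the LOI(+) arrays, so the order of extraction cannot be told apart from group.

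The labelled tissue was checked by lists of markers, by their mean log2 ratio to the reference. Epithelial markers had a median of 3.13 over 9 genes, from -0.035 for Cdx2 and 0.025 for Krt18 to 5.82 for Vil1. The 4 measured stem cell markers lay from 0.11 for Axin2 to 2.99 for Smoc2, with Lgr5 at 1.38. The Cy3 signal of Axin2, 447 to 456, was close to the negative controls. Paneth cell markers had a median of 4.13 over 6 genes, with Nupr1 at -0.45 and Reg3g at 5.27. Itln1 on every array, and Reg3g and Krt19 on their brightest, had a Cy3 signal of 65520. That was the highest among the markers, so these ratios may be capped. Fibroblast markers were below the reference for 6 of 6 genes, from -5.42 for Vim to -0.27 for Lum, and smooth muscle markers for 4 of 5, from -3.18 for Cald1 to 0.28 for Cnn1. Cald1 was above the bound of the negative controls on only 2 arrays. Of the immune markers, those of T cells lay from -1.24 for Cd3g to 1.29 for Gzma. Those of B cells lay from -1.87 for Cd79b to 0.91 for Ms4a1, and the medians of the T and B cell lists were 0.054 and 0.013. Myeloid markers lay from -1.97 for Adgre1 to 4.01 for Lyz2, which is also on the Paneth cell list. Villus enterocyte markers stood from 1.04 for Anpep to 6.28 for Fabp1. Whether that RNA came from villus cells or from cells of the crypt was not tested. In such mixed tissue, fewer cells of a type and less RNA per cell cannot be told apart.

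Values below are log2 of crypt over reference on each array, where 0 is set by the loess fit near the middle of all probes at a given brightness. Since no array had the dyes exchanged, a probe's dye effect is part of its ratio in both groups alike. The ratio says how a transcript compares with the cultured cell lines, and the difference between groups is LOI(+) minus LOI(-) with its SE from limma. None of the 8 genes passed the test, whose smallest adjusted p over the family was 0.817 for E2f1 and whose largest was 0.999. Over all 41006 probes 0 passed (0.00%), with a smallest adjusted p of 0.808, while 2507 had an unadjusted p under 0.05 (6.11%), of which 1565 were higher in LOI(+) (3.82%) and 942 lower (2.30%). A linear model without moderation also gave 0 after adjustment, and its counts at an unadjusted p under 0.05 were 1275 probes higher and 978 lower.

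E2f1, the activator most tied to S phase entry, was lower in crypts than in the reference in every mouse. Its log2 ratios were -0.48, -0.46 and -0.50 in LOI(-) 1 to 3 and -0.33, -0.37 and -0.37 in LOI(+) 1 to 3. The groups did not overlap, with every LOI(+) mouse above every LOI(-) mouse. The means were -0.48 ± 0.019 (SD, n = 3) and -0.36 ± 0.027 (SD, n = 3), the closest replicates of the family, and the difference was 0.12 ± 0.052, a fold of 1.09, with a 95% interval from -0.00095 to 0.24. The unadjusted p was 0.0514 in limma and the adjusted p 0.817. Under 5 other settings the unadjusted limma or linear model p fell under 0.05, to 0.0025 without background correction, 0.0032 without moderation, 0.033 with median centring, 0.045 with a variance trend and 0.0499 with 1 probe per gene, while the adjusted p over all alternatives was 0.659 or more. An exact two-sided permutation test over all 20 ways to split the mice gave p = 0.1, which is the lowest value such a split can reach. Any gene whose groups do not overlap must give that value with 3 mice per group, so it adds nothing to the lack of overlap. E2f1 was the 1 gene of the 8 without overlap, where 11.3% of all probes had none, 6.26% higher and 5.04% lower, so the share in the family was near that of all probes.

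**Figure D1:**
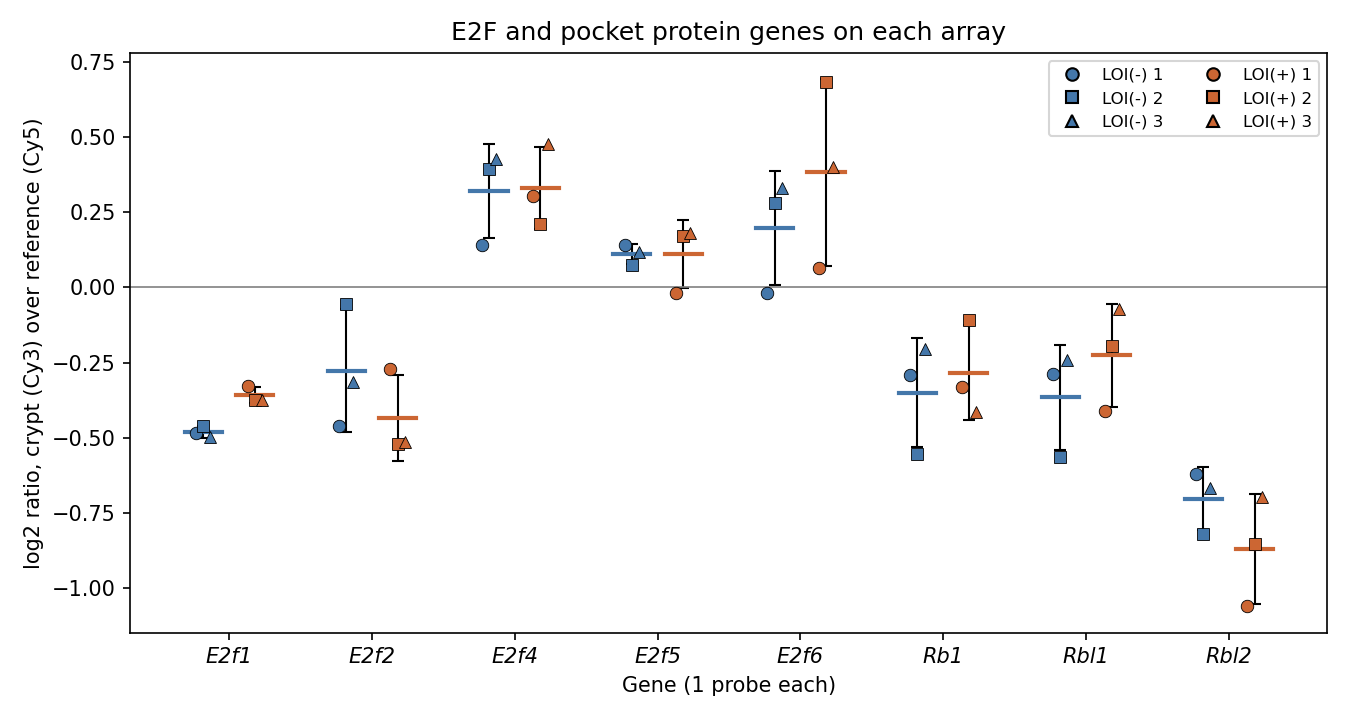
Log2 ratio of crypt (Cy3) over reference RNA (Cy5) for the 8 measured genes, 1 probe each. Each symbol is 1 mouse, horizontal bars are group means and error bars the SD of 3 mice. E2f1 is the gene whose groups lie apart (-0.50 to -0.46 in LOI(-), -0.37 to -0.33 in LOI(+)), and E2f6 has the widest spread, from -0.020 to 0.68.

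E2f2, the other activator with a probe, was lower in crypts than in the reference too. The ratios were -0.46, -0.054 and -0.31 in LOI(-) 1 to 3 and -0.27, -0.52 and -0.51 in LOI(+) 1 to 3. The groups overlapped, with LOI(-) 2 highest and LOI(-) 1 among the LOI(+) values. The difference was -0.16 ± 0.12, of the opposite sign to E2f1, with a 95% interval from -0.44 to 0.13 and an adjusted p of 0.852 in limma. It was -0.048 without LOI(-) 2, -0.25 without LOI(-) 1 and -0.24 without LOI(+) 1. Whether E2f1 and E2f2 differed from each other in response was not tested.

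E2f4, the most abundant repressor E2F of many tissues, had ratios of 0.14, 0.39 and 0.43 in LOI(-) 1 to 3 and 0.30, 0.21 and 0.48 in LOI(+) 1 to 3. The values of the groups were interleaved. The difference was 0.011 ± 0.10, with a 95% interval from -0.23 to 0.25. It turned to -0.080 without LOI(-) 1 and to -0.063 without LOI(+) 3. E2f5, its close relative, had ratios of 0.14, 0.073 and 0.12 in LOI(-) and -0.020, 0.17 and 0.18 in LOI(+). LOI(+) 1 was lowest and the other LOI(+) mice highest. The E2f5 difference, 0.00052 ± 0.072, was the smallest of the family, with a 95% interval from -0.17 to 0.17. It turned to -0.018, -0.029 and -0.035 without LOI(-) 2, LOI(+) 2 and LOI(+) 3.

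E2f6, a repressor that acts with Polycomb-type complexes and keeps germ cell genes silent in somatic cells, varied most between mice. Its ratios were -0.020, 0.28 and 0.33 in LOI(-) 1 to 3 and 0.063, 0.68 and 0.40 in LOI(+) 1 to 3. In each group the mouse numbered 1 was lowest, and LOI(+) 2, the array with the most outlier features, was highest. The groups overlapped. The SD over the 6 mice was 0.25, against 0.070 for E2f1 and a median of 0.099 over all probes. The difference was 0.18 ± 0.17, the largest of the family in size, with a 95% interval from -0.21 to 0.58, and it was 0.035 without LOI(+) 2, 0.076 without LOI(-) 1 and 0.34 without LOI(+) 1. The adjusted p was 0.873 in limma, and 12.2% of all probes had a larger difference in either direction.

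Rb1, the founding pocket protein, was below the reference in every mouse, at -0.29, -0.55 and -0.20 in LOI(-) 1 to 3 and -0.33, -0.11 and -0.41 in LOI(+) 1 to 3. The LOI(+) values lay within the LOI(-) range apart from that of LOI(+) 2. The Rb1 difference was 0.066 ± 0.12, with a 95% interval from -0.21 to 0.34, and it turned to -0.036 without LOI(-) 2 and to -0.022 without LOI(+) 2.

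Rbl1, the pocket protein that is itself an E2F target and is made mostly in dividing cells, was at -0.29, -0.56 and -0.24 in LOI(-) 1 to 3 and -0.41, -0.19 and -0.072 in LOI(+) 1 to 3. The groups overlapped through LOI(+) 1, which was lower than 2 of the LOI(-) mice. The Rbl1 difference was 0.14 ± 0.12, with a 95% interval from -0.14 to 0.42 and an adjusted p of 0.865 in limma. It was 0.040 without LOI(-) 2, 0.063 without LOI(+) 3 and 0.23 without LOI(+) 1. Rb1 and Rbl1 were both lowest in LOI(-) 2.

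Rbl2, the pocket protein of resting and differentiated cells, had the lowest mean ratio to the reference of the family, an order that did not hold without background correction, where Rbl2 stood at -0.34, E2f2 at -0.35 and E2f1 at -0.41. The ratios were -0.62, -0.82 and -0.67 in LOI(-) 1 to 3 and -1.06, -0.85 and -0.70 in LOI(+) 1 to 3. The groups overlapped, though both extremes were in the direction of lower values in LOI(+), with LOI(-) 1 highest and LOI(+) 1 lowest. The Rbl2 difference was -0.17 ± 0.10, with a 95% interval from -0.41 to 0.078 and an adjusted p of 0.834 in limma. It was -0.073 without LOI(+) 1, -0.25 without LOI(+) 3 and -0.072 without background correction. Of the 3 pocket protein genes it was the 1 with a lower mean in LOI(+).

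**Figure D2:**
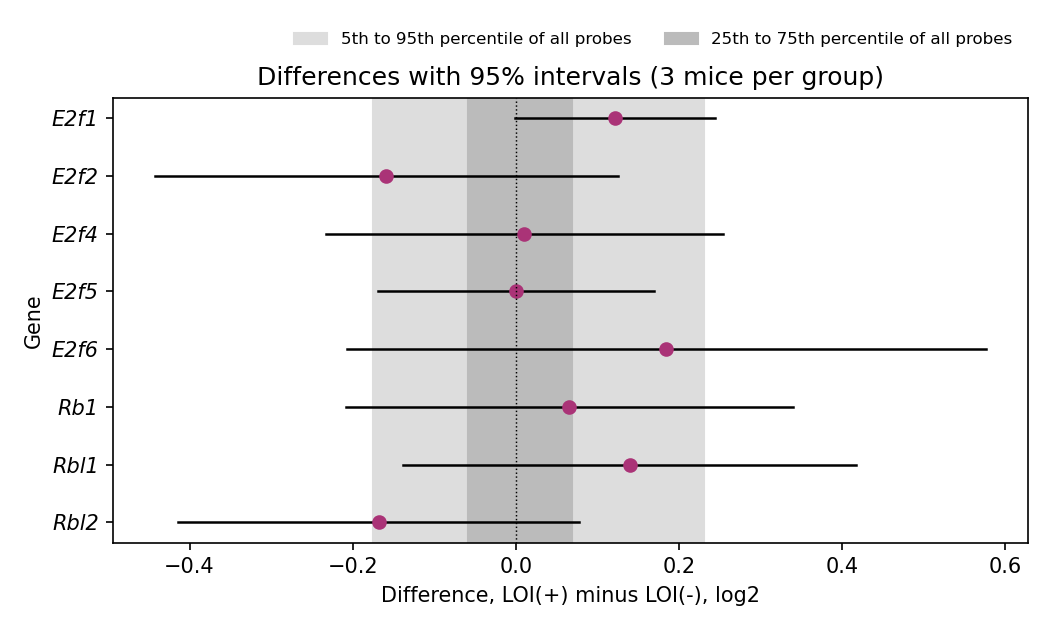
Difference in log2 ratio, LOI(+) minus LOI(-), for the 8 genes (points) with 95% intervals from limma, 3 mice per group. Grey bands give the spread of the same difference over all probes. Every interval holds 0, and the points lie between -0.17 (Rbl2) and 0.18 (E2f6).

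By direction, the LOI(+) mean was above the LOI(-) mean for 6 of the 8 genes and below it for 2, with a median difference of 0.038, where 51.0% of all probes were higher, with a median of 0.0023. At an unadjusted p under 0.05 there were 0 of the 8, in either direction, against 6.11% of all probes, 3.82% higher and 2.30% lower. The intervals bound what these arrays leave possible. For E2f4 and E2f5 they reached no further than 0.25 in either direction, while that of E2f6 reached 0.58.

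Against the reference, Rbl2 had the lowest mean ratio over the 6 mice, -0.79 ± 0.16 (SD, n = 6), a level in the reference 1.72 times that in crypts. E2f1 at -0.42 ± 0.070 (SD, n = 6), E2f2 at -0.36 ± 0.18 (SD, n = 6), Rb1 at -0.32 ± 0.16 (SD, n = 6) and Rbl1 at -0.29 ± 0.17 (SD, n = 6) followed, and these 4 did not differ beyond their spread. E2f5 at 0.11 ± 0.075 (SD, n = 6), E2f6 at 0.29 ± 0.25 (SD, n = 6) and E2f4 at 0.32 ± 0.13 (SD, n = 6) were above the reference, and the order of E2f6 and E2f4 was within their spread. The 3 repressive E2Fs thus stood above 0 and the 2 activators and 3 pocket proteins below it, the latter 5 in every mouse. That division depended in part on the scaling. With arrays centred on the median in place of loess, E2f5 turned to -0.23, E2f6 stood at 0.0014 and E2f4 at 0.059, while E2f1 and E2f2 stood at -0.88 and -0.78. Without background correction, Rbl2, the dimmest probe of the family, moved to -0.34 and was no longer lowest, and E2f4 moved to 0.18.

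The other parts of the pathway were read from lists of its genes, each gene by its brightest probe. No gene of any list passed the limma test after adjustment over all probes (smallest adjusted p 0.808), so the genes named next are those of smallest unadjusted p. Over the 12354 named genes, 4.92% lay higher and 2.58% lower by an unadjusted p under 0.05, 52.8% had a higher mean in LOI(+), and 0.00% passed after adjustment.

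Among DP partners and subunits of the DREAM and MuvB complexes, which hold E2F and cell cycle promoters silent in resting cells and activate them later, the mean was higher in LOI(+) for 3 of 7 measured genes, and an unadjusted p under 0.05 was reached by 1 upward and 1 downward. Foxm1, the factor that activates mitotic genes with MuvB, differed by 0.22 ± 0.068, and its groups did not overlap. Rbbp4, a histone-binding subunit of MuvB and of several corepressors, differed by -0.72 ± 0.24, with overlapping groups. Lin52, a MuvB subunit, differed by 0.063 ± 0.12, and by -0.087 ± 0.063 on its other probe. Tfdp2, a DP partner, stood at 1.43 against the reference and differed by -0.10 ± 0.23 on its brighter probe and by 0.045 ± 0.077 on the other. The repressor E2f7 differed by -0.0049 ± 0.068.

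Among corepressors of E2F6 and of the pocket proteins, 10 of 15 had a higher mean, and at an unadjusted p under 0.05 there were 0 in either direction. Kdm5a and Rnf2, both with lower means, exceeded the bound of the negative controls on 0 arrays, and the other 13 on 3 or more. The median difference was 0.047. The deacetylases Hdac1 and Hdac2 differed by 0.13 ± 0.058 and 0.23 ± 0.11, and the groups did not overlap for Hdac1. The methyltransferase Ehmt1 differed by 0.15 ± 0.079, and Rbbp7, a relative of Rbbp4, by 0.33 ± 0.17 over 5 arrays.

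The cyclins, kinases and phosphatases that set the phosphorylation of pocket proteins had 7 of 11 higher means, with 2 above and 0 below by an unadjusted p under 0.05. Ccne1, cyclin E1, differed by 0.55 ± 0.11 on its brighter probe and by -0.017 ± 0.054 on the other. Ppp1cc, a catalytic subunit of the phosphatase that reverses RB phosphorylation, differed by 0.24 ± 0.095, and by 0.27 ± 0.098 on its second probe. Cdc25a, a phosphatase that activates cyclin-dependent kinases, differed by -0.20 ± 0.087. Ccnd1, cyclin D1, differed by -0.19 ± 0.092, and by 0.031 ± 0.11 on its second probe.

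Of the 7 CDK inhibitors, which keep pocket proteins active, 1 was higher and 2 were lower at an unadjusted p under 0.05. On 3 or more arrays, 6 of the 7 exceeded the bound of the negative controls. Cdkn1a, p21, differed by -0.73 ± 0.12 on its brighter probe and by -0.21 ± 0.11 on the other. Cdkn2d, p19, differed by -0.17 ± 0.060 on its brighter probe and by 0.22 ± 0.11 on the other, which have opposite signs. Cdkn1c, p57, differed by 0.16 ± 0.060, and Cdkn2b, p15, by -0.14 ± 0.21.

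**Figure D3:**
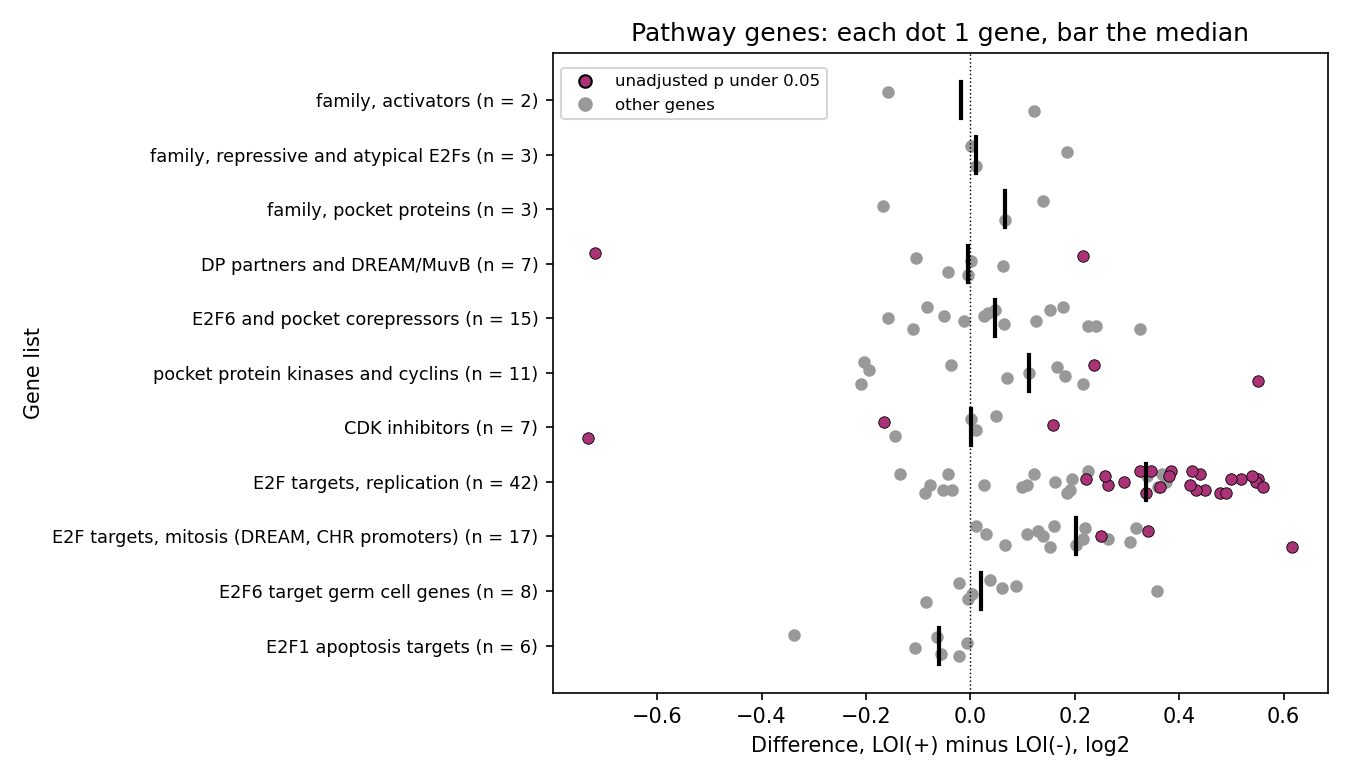
Difference LOI(+) minus LOI(-) in log2 for each measured gene of the family and of the pathway lists, by its brightest probe, with the median of each list as a bar. Coloured dots have an unadjusted p under 0.05, and 0 genes pass after adjustment. The replication targets have a median of 0.34 and the family groups medians of -0.019, 0.011 and 0.066.

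Most E2F targets that act in replication had a higher mean in LOI(+). They were 36 of 42 measured genes, 23 of them with an unadjusted p under 0.05 against 0 on the lower side, and the median difference was 0.34. These 23 differed by 0.22 to 0.56, led by Mcm5, part of the helicase that opens DNA for replication, at 0.54 ± 0.088, Chaf1a, a subunit of a histone chaperone, at 0.55 ± 0.089, and Ccne1 as given. The second Mcm5 probe differed by 0.27 ± 0.094. Of the genes of this list with a promoter window, 21 of 40 held an E2F core, against 7.65% of all genes. The list was written from known targets, so that share describes the list. The lists of replication and mitotic targets were also chosen with earlier results of these data known. Their genes were read in the same mice, so the counts are not counts of independent observations.

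Mitotic targets, which DREAM and MuvB control through another promoter element, had a higher LOI(+) mean in 17 of 17 measured genes, with 3 above and 0 below by an unadjusted p under 0.05 and a median of 0.20. Tpx2, a spindle factor, differed by 0.34 ± 0.10, Birc5, of the chromosomal passenger complex, by 0.62 ± 0.23, Ube2c, a mitotic ubiquitin-conjugating enzyme, by 0.25 ± 0.097 and Cdk1, the mitotic kinase, by 0.30 ± 0.14. The second probes of Ube2c and Cdk1 differed by 0.017 ± 0.15 and -0.013 ± 0.088. The count of 3 rested on single mice, being 1 without LOI(-) 1, LOI(-) 2 or LOI(+) 3, 6 without LOI(-) 3 and 8 without LOI(+) 1.

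Over the mice, the mean ratios of the replication list were -0.61, -0.60 and -0.37 in LOI(-) 1 to 3 and -0.31, -0.22 and -0.19 in LOI(+) 1 to 3. The groups did not overlap, and LOI(-) 3 was the nearest to LOI(+). E2f1 also separated the groups, and there LOI(-) 3 was the mouse farthest from the LOI(+) group. The LOI(-) values of E2f1, -0.50 to -0.46, lay too close together for their order to be read. For the mitosis list the means were -0.56, -0.73 and -0.37 in wild-type mice and -0.53, -0.30 and -0.21 in LOI(+) mice, and the groups overlapped. It was lowest in LOI(-) 2, as were Rb1 and Rbl1.

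**Figure D4:**
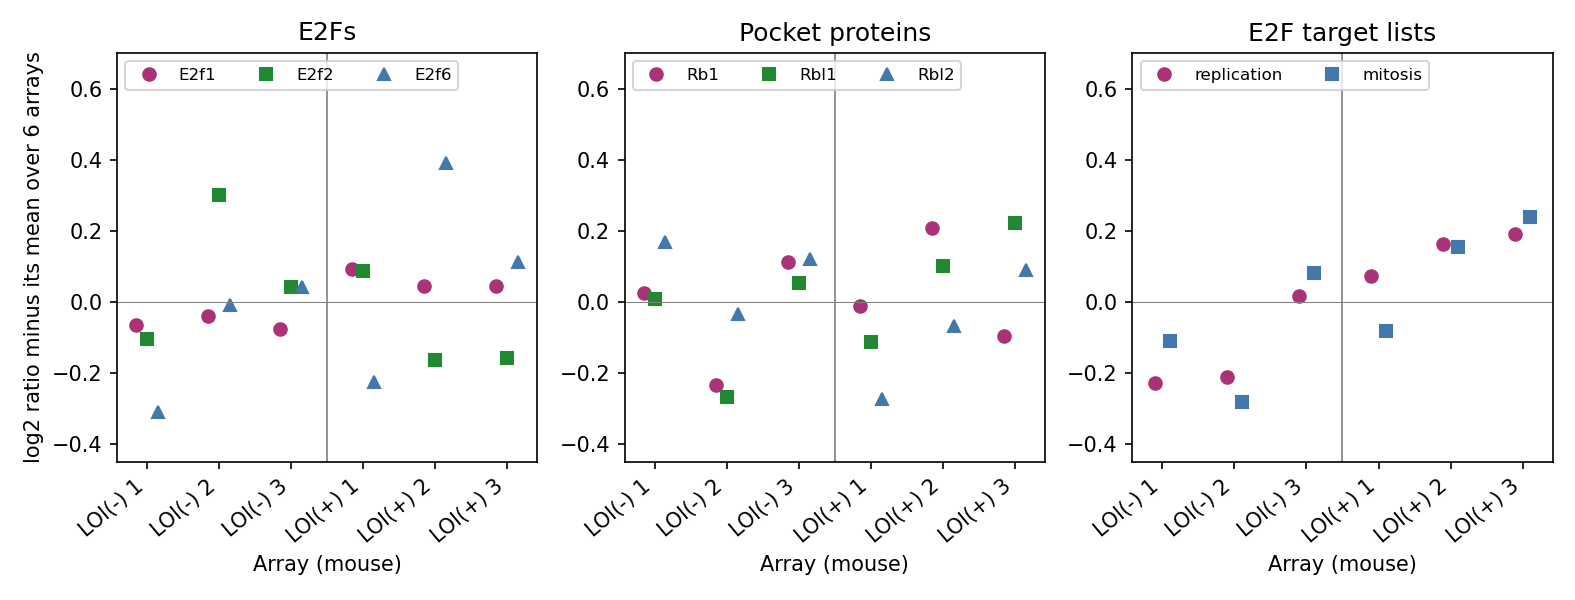
Log2 ratio of each mouse minus the mean of the 6 mice, for 3 E2F genes, the 3 pocket protein genes and the means of the 2 E2F target lists. The vertical line separates the LOI(-) from the LOI(+) mice. The replication targets lie from -0.23 to 0.017 in LOI(-) and from 0.072 to 0.19 in LOI(+), and E2f1 also separates the groups, over a narrower range.

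Other cell type markers moved beside these values. Epithelial markers were lower in LOI(+) for 8 of 9 genes, with array means from 2.62 to 2.83 in LOI(-) and from 2.46 to 2.54 in LOI(+). With an unadjusted p under 0.05, 3 epithelial, 2 goblet cell, 2 smooth muscle, 1 Paneth cell and 1 T cell marker were lower. By the same bound 1 marker of dividing cells was higher. Over all named genes 2.58% were lower and 4.92% higher by that bound. Of the markers counted as lower, Cald1 (smooth muscle) exceeded the level of the negative controls on only 2 arrays. Cd3g (T cells) and Cdx1 (epithelium) were dim too, with Cy3 signals of 477.5 to 503.6 and 488.9 to 545.2. Goblet cell markers were lower for 5 of 5, with array means from 4.03 to 4.22 in LOI(-) and from 3.91 to 4.07 in LOI(+). Paneth cell markers were lower for 5 of 6, from 3.74 to 3.91 in LOI(-) and from 3.53 to 3.70 in LOI(+). Of these, Itln1, counted as lower at -0.023, had the Cy3 signal of 65520 on every array. Reg3g, counted as higher at 0.010, reached it on its brightest. Both may be capped, so neither sign can be read. Villus enterocyte markers were higher for 5 of 5. Their array means were 3.54, 4.14 and 4.16 in LOI(-) 1 to 3 and 4.16, 4.40 and 4.28 in LOI(+) 1 to 3. Apoa1 had no value on part of the LOI(+) arrays, so the LOI(+) means do not all hold the same genes. Smooth muscle markers were lower for 4 of 5, from -0.88 to -0.70 and from -1.02 to -0.83. Fibroblast markers were lower for 5 of 6, from -2.76 to -2.49 and from -2.87 to -2.50. Markers of T cells, myeloid cells and endothelium were lower for 6 of 7, 3 of 4 and 3 of 3 genes. Markers of B cells and of stem cells were lower for 2 of 4 each. Those of dividing cells were higher for 5 of 6, but all 6 are also on the 2 E2F target lists above. They are therefore not a separate reading. The markers of other cell types were not on the target lists. Their part in the values of E2f1 and of the target lists was not tested.

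The list of germ cell genes that E2F6 is known to silence had 5 of 8 higher means. At an unadjusted p under 0.05 there were 0 in either direction. The median was 0.021, beside the E2f6 difference of 0.18. Among the 8 was Smc1a, a cohesin gene not limited to germ cells, at -0.022 ± 0.11. Tuba3b, a testis tubulin with a near-identical copy whose reads on an array can mix, differed by 0.36 ± 0.23, and by -0.027 ± 0.057 on its other probe. Mei1, a meiotic recombination factor, differed by -0.085 ± 0.088, Smc1b, a meiotic cohesin, by 0.061 ± 0.069, and Tex101, a sperm surface protein, by 0.037 ± 0.066. Other probes differed by -0.12 ± 0.062 and 0.064 ± 0.089 for Mei1 and by -0.018 ± 0.059 for Tex101, so the sign of both genes depended on the probe. Apoptosis genes known as E2F1 targets had a lower mean in 6 of 6 measured genes, with 0 in either direction at an unadjusted p under 0.05 and a median of -0.060. Casp9, the initiator caspase of the mitochondrial pathway, differed by -0.11 ± 0.051, Trp53inp1, a p53-induced protein, by -0.34 ± 0.25, and the BH3-only genes Bbc3 and Pmaip1 by -0.063 ± 0.080 and -0.057 ± 0.083. The second probes of Casp9 and Trp53inp1 differed by -0.059 ± 0.066 and -0.042 ± 0.072.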

How the data were processed

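The authors deposited 1 scanner file per array, with spot intensity in each channel, made with Agilent's Feature Extraction software per the file headers. Their value table, on a log10 scale, served as an alternative. Its columns correlated at 0.998 or more with the log10 ratio of the processed signals, Cy3 over Cy5, to which the mean log10 reference signal was added, and had medians from 2.90 to 2.91. LogRatio, a deposited log10 value of Cy5 over Cy3, was not used. The sources used here do not give the test the authors ran. In limma 3.58.1 under R 4.3.3, mean signals and the local background median entered normexp (offset 50), and ratios were normalized by loess within arrays, with control features at weight 0 and outlier features left out. Spots of a probe were averaged. Groups were compared with lmFit and eBayes, two-sided, with Benjamini-Hochberg adjustment over 41006 probes at 0.05. Of these 15421 (37.6%) had a RefSeq symbol (GRCm38.p6), for 12354 genes. The fit was tested on simulated data with independent noise. The differences added there were all larger than those of the family, so that test does not cover differences of the family's size. Precision is limited by the number of arrays. The genes and lists were chosen with earlier results of these data known. Named were all family genes and, of each list, up to 4 genes of smallest unadjusted p. For 1 gene that this rule names, the result is not reported here. Marker genes, E2f7, Smc1a, Kdm5a and Rnf2 were named after their values were seen.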

Additional observations from a re-analysis of the deposited data

How the results depend on the processing

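In each of the 22 alternatives 0 probes passed an adjusted p of 0.05. E2f1, E2f2, E2f6, Rbl1 and Rbl2 kept their sign in all 22, E2f1 between 0.092 and 0.18, and no family gene passed after adjustment in any. Of the 8 family genes, 0 at an unadjusted p under 0.05 became 2 without background correction, 1 with median centring, 1 with 1 probe per gene, 1 with a variance trend and 1 in the linear model without moderation, and 0 to 1 without single mice. That gene was E2f1, joined by Rbl2 without background correction, and without single mice it was E2f6 (without LOI(+) 1) or Rbl2 (without LOI(+) 3). E2f5 turned to -0.0044 with an offset of 16 and to -0.026 without the arrays lacking a sex label. Without single mice E2f2 ranged from -0.25 to -0.048, Rbl1 from 0.040 to 0.23, Rbl2 from -0.25 to -0.073, E2f4 from -0.080 to 0.071, E2f5 from -0.035 to 0.066 and Rb1 from -0.036 to 0.14. The 23 replication targets became 15 in the linear model without moderation and 16 to 29 without single mice. The 3 mitotic targets became 5 with median centring, 1 without moderation, 6 with array weights and 6 without the arrays lacking a sex label. Over all probes the 1565 higher became 916 to 2437 without single mice, and the 942 lower became 500 without the arrays lacking a sex label. The cause was not tested. Whether replicate numbers pair the mice was not settled. Deviations of same-numbered mice from their group means correlated at -0.085, -0.25 and 0.35. The mice numbered 3 correlated best with their own number, and those numbered 1 and 2 did not. With 3 mice per group the deviations sum to 0, so these correlations cannot decide it. With the replicate block 0 probes passed, 0 family genes had an unadjusted p under 0.05, and 29 replication and 8 mitotic targets did. The planned scan date block was not run, as no such date was used here.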
